A study of Mus musculus with 4 samples.

Results

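The 10 genes described here, Ccl2, Ccl3, Ccl4, Ccl6, Ccl7, Ccl8, Ccl9, Ccl11, Ccl12 and Ccl24, encode CC chemokines and were taken by symbol from the 31053 genes of the count tables. They were listed as chemokines of aortic macrophages, and their levels were read in every cell type that marker genes could separate. Single-cell RNA-seq was done on aortic arches with their branches and the perivascular tissue around them, in 4 libraries of 1 group each. By whole cell lineage, the label held for 6 of the 10 genes, whose level was highest in mononuclear phagocytes. This lineage also takes in monocytes and dendritic cells. Among lineages, Ccl3 and Ccl4 were highest in NK cell-like cells, and Ccl11 was a gene of fibroblast-like cells. Ccl6 was at a like level in neutrophil-like cells and phagocytes (1599 against 1529 UMIs per 1000000, with overlapping ranges over libraries). By finer class, Ccl6 was highest in cavity macrophage-like cells (3521). Ccl3 was highest in Trem2/Cx3cr1 macrophage-like cells (737 against 658 in NK cell-like cells, with overlapping ranges over libraries). The values of Ccl3 and Ccl4 in NK cell-like cells rested on the library Lox_CTR: over the other 3 libraries summed, phagocytes were the highest lineage for 9 of the 10 genes, all but Ccl11.

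All mice were male, were 3 months old at the start and carried the floxed Nrf2 allele (Nfe2l2, the transcription factor of the antioxidant response). The library Lox_CTR came from 4 pooled Nrf2 flox/flox mice (label genotype Nrf2Cdh5Lox) given saline and standard diet. KO_CTR came from 4 pooled Nrf2Cdh5tKO mice kept the same way, in which Cre driven by the Cdh5 promoter excises exon 5 of the gene. Lox_HFD and KO_HFD came from 3 pooled mice each of these genotypes, made hypercholesterolemic with an AAV8 vector and 21 weeks of high-fat diet. This Cre acts in endothelium and in part of the blood lineage, so macrophages of these mice may be a mix of cells with and without the deletion. With 1 library per group there is no replicate: diet, genotype, pool and library cannot be told apart, no test between conditions was possible, and every interval given here is a 95% interval that covers counting error only.

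CC chemokines are small secreted proteins with adjacent cysteines near the amino end that guide leukocytes through G protein-coupled receptors. Ccl2, Ccl7 and Ccl12 attract monocytes through Ccr2, while Ccl8 of the mouse is known as a ligand of Ccr8. Ccl3, Ccl4, Ccl6 and Ccl9 attract myeloid or lymphoid cells, Ccl3, Ccl6 and Ccl9 through Ccr1, and Ccl11 and Ccl24, the eotaxins, attract eosinophils through Ccr3. In arteries, monocyte entry through Ccl2 and Ccr2 is a textbook step of plaque growth, while Lyve1+ macrophages are long-lived cells of the adventitia.

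All but one of the genes lie on chromosome 11 in a pair of groups (GRCm38). Ccl2, Ccl7, Ccl11, Ccl12 and Ccl8 follow each other within 81.2 kb (chr11:82035571-82116799) with no other coding gene between them, and Ccl9, Ccl6, Ccl3 and Ccl4 lie within 91.8 kb (chr11:83572919-83664683). Ccl24 is on chromosome 5 (chr5:135569937-135573049, minus strand). Ccl2 and Ccl6 overlap the antisense genes Gm17268 and E230016K23Rik, and with gene-level counts reads of such partners are not separated unless the counting used strand. No stretch of 50 bases within the last 500 transcript bases of any of the 10 genes occurred in another gene.

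Promoter sequences (RefSeq, GRCm38.p6, 250 bases before the start, 5′ to 3′ on the gene's strand) matched 5 of the 10 genes: Ccl3, Ccl6, Ccl8, Ccl9 and Ccl12. Those of Ccl8 (chr11:82114935-82115184, plus strand) and Ccl12 (chr11:82101595-82101844, plus strand) are shown because these genes were higher in both high-fat libraries. Those of Ccl9 (chr11:83578637-83578886, minus strand) and Ccl6 (chr11:83593088-83593337, minus strand) are shown because these neighbours shared classes but differed in the order of libraries. Capitals mark matches on either strand to TATAAA (the TATA box core), TGANTCA (an AP-1 motif), GAAANNGAA (an interferon-response motif), TTGCNNAA (a C/EBP motif) or the kappaB consensus.
Ccl8: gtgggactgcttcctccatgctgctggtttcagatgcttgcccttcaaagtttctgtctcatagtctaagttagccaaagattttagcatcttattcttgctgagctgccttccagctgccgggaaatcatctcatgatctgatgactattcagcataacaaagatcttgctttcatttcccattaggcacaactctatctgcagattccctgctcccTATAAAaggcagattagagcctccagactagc
Ccl12: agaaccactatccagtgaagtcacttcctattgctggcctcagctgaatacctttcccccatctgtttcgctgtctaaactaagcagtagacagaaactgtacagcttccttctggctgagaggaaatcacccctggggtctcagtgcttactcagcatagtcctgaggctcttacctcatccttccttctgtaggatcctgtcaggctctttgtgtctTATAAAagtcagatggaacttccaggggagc
Ccl9: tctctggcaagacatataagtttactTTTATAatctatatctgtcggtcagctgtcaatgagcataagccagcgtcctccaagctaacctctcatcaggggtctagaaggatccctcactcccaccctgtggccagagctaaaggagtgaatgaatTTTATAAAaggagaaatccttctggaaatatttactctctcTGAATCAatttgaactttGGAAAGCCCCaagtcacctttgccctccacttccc
Ccl6: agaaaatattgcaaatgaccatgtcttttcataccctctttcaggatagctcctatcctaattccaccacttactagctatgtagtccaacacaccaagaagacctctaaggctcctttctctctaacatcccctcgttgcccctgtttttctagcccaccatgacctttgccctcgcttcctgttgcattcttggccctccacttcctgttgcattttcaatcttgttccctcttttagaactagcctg
Ccl8 and Ccl12 each held a TATAAA near the start, beginning at -32 and -31. Ccl9 held TATAAA at -224, -94 and -92, of which the last 2 overlap, TGANTCA at -53 and a kappaB match at -35, and the Ccl6 window held none of the 5 motifs. Of the 32851 promoters searched, 12.4% held TATAAA, 6.75% TGANTCA, 7.13% GAAANNGAA, 9.56% TTGCNNAA and 7.25% the kappaB consensus. A match is a run of letters and not a shown binding site.

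The libraries held 1160 to 8512 barcodes and 12276546 to 98754487 UMIs (unique molecular identifiers, each 1 captured transcript end). After filtering, 13026 cells remained, with a median of 10696 to 14970.5 UMIs per library, and between 2 and 10 barcodes were shared by any pair of libraries. A cell entered a lineage when at least 3 of its 6 markers were present at 1 or more per 10000 UMIs, with a lead of 2 markers over every other lineage. This gave 1498 mononuclear phagocytes (759 in Lox_CTR, 318 in KO_CTR, 148 in Lox_HFD and 273 in KO_HFD), 7010 fibroblast-like, 2010 smooth muscle cell-like, 794 T cell-like, 107 neutrophil-like and 36 NK cell-like cells, with 1236 cells ungated. T cell-like cells were led by thymocyte genes. Ptprc (CD45) was detected in 92.5% of phagocytes and in 4.07% of fibroblast-like cells. Among phagocytes, 823 were Lyve1+ resident macrophage-like (403, 215, 58 and 147 in the order above), and Mrc1, C1qa and Pf4, which the gate did not use, were detected in 99.4%, 100% and 99.8% of them. Nfe2l2 was not lower in the libraries labelled KO: in endothelial cell-like cells it stood at 174, 359, 163 and 310 CPM (UMIs of a gene per 1000000 UMIs of the cells summed, not divided by gene length because each transcript end is counted once; 56, 82, 23 and 35 UMIs), and in phagocytes at 433 to 494. Counts per gene do not show which exon a UMI came from, so the genotype names are used below as the labels of the libraries.

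**Figure D1:**
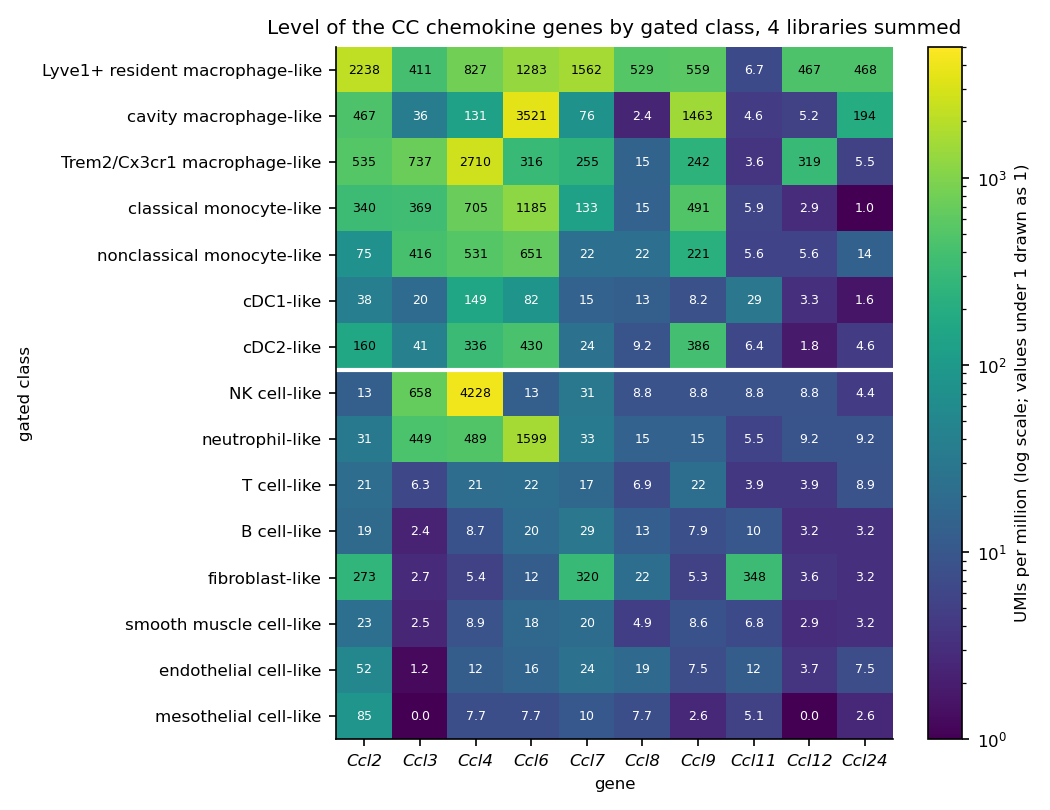
Level of the 10 CC chemokine genes (columns) in each gated class (rows), 4 libraries summed, in CPM, on a log colour scale; classes above the white line are mononuclear phagocytes. Ccl2, Ccl7 and Ccl8 were highest in Lyve1+ resident macrophage-like cells (2238, 1562 and 529), Ccl6 and Ccl9 in cavity macrophage-like cells (3521 and 1463), and Ccl11 in fibroblast-like cells (348).

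The 10 genes together held 0.660%, 0.573%, 0.411% and 0.668% of all phagocyte UMIs in Lox_CTR, KO_CTR, Lox_HFD and KO_HFD. In Lyve1+ resident macrophage-like cells 9 of them ranked among the 353 most abundant of 31053 genes, Ccl2 at place 48 and Ccl7 at 104, while Ccl11 was at place 8372. Level and location were different things for Ccl2 and Ccl7. Their level was higher in phagocytes than in fibroblast-like cells (1291 against 273 CPM for Ccl2 and 798 against 320 for Ccl7), but the 7010 fibroblast-like cells held 48.4% of all Ccl2 UMIs and 62.4% of all Ccl7 UMIs, against 41.6% and 28.3% in phagocytes. For Ccl6, Ccl9 and Ccl12 phagocytes held 81.9%, 83.0% and 82.1%.

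The monocyte attractants Ccl2 and Ccl7 shared their leading class. Ccl2 was at 2238 CPM in Lyve1+ resident macrophage-like cells, 4.18-fold the level of the next class, the Trem2/Cx3cr1 macrophage-like cells (535). Cavity macrophage-like cells, which carry Lyz1, Retnla and Fn1, had 467. Ccl7 was at 1562 in the Lyve1+ class, 4.88-fold the level in fibroblast-like cells, and at 255 in Trem2/Cx3cr1 macrophage-like cells. For both genes the range over libraries in the Lyve1+ class (1559 to 2527 for Ccl2, 1135 to 1713 for Ccl7) lay above that of the next class.

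Ccl8 was nearly a gene of one phagocyte class. Lyve1+ resident macrophage-like cells held 96.4% of the Ccl8 UMIs of phagocytes, at 529 CPM, 23.7-fold the level of the next class (nonclassical monocyte-like, 22.3). Ccl8 was also among the 10 genes with the highest fold in the Lyve1+ class against other phagocytes, although the gate did not use it. Ccl12 was at 467 in this class and at 319 in Trem2/Cx3cr1 macrophage-like cells, and these ranges overlapped over libraries (318 to 1116 and 226 to 414). Its level was 5.2 in cavity macrophage-like and 2.9 in classical monocyte-like cells, the value of smooth muscle cell-like cells (2.9), which should not make this chemokine and are read here as the level of free RNA.

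Ccl3 and Ccl4 led in Trem2/Cx3cr1 macrophage-like cells among phagocytes, at 737 and 2710 CPM. NK cell-like cells had 658 and 4228, with 26 of the 36 cells from Lox_CTR, where they were at 1057 and 6905. In the 10 NK cell-like cells of the other 3 libraries Ccl3 was at 95.1 (43.5 to 181) and Ccl4 at 455 (329 to 612), below the 280 and 1059 of phagocytes in these libraries, so the order turned without Lox_CTR. In the Lyve1+ class Ccl4 was at 827, and Ccl3 at 411. Ccl6 and Ccl9, the Ccr1 ligands, shared another order: Ccl6 was at 3521 in cavity macrophage-like, 1599 in neutrophil-like, 1283 in Lyve1+ and 1185 in classical monocyte-like cells. Ccl9 was at 1463, 559 and 491 in the cavity, Lyve1+ and classical monocyte-like classes, and at only 14.7 in neutrophil-like cells, where Ccl6 was abundant.

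The eotaxins parted. Fibroblast-like cells held 92.9% of all Ccl11 UMIs at 348 CPM, 11.8-fold the next class. In phagocytes Ccl11 stood at 1.93% of the fibroblast level, and its 6.7 CPM in the Lyve1+ class matched the 6.8 of smooth muscle cell-like cells, so it is read as background there. Ccl24 was a macrophage gene, at 468 in the Lyve1+ class and 194 in cavity macrophage-like cells, with 81.2% of its phagocyte UMIs in the former.

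**Figure D2:**
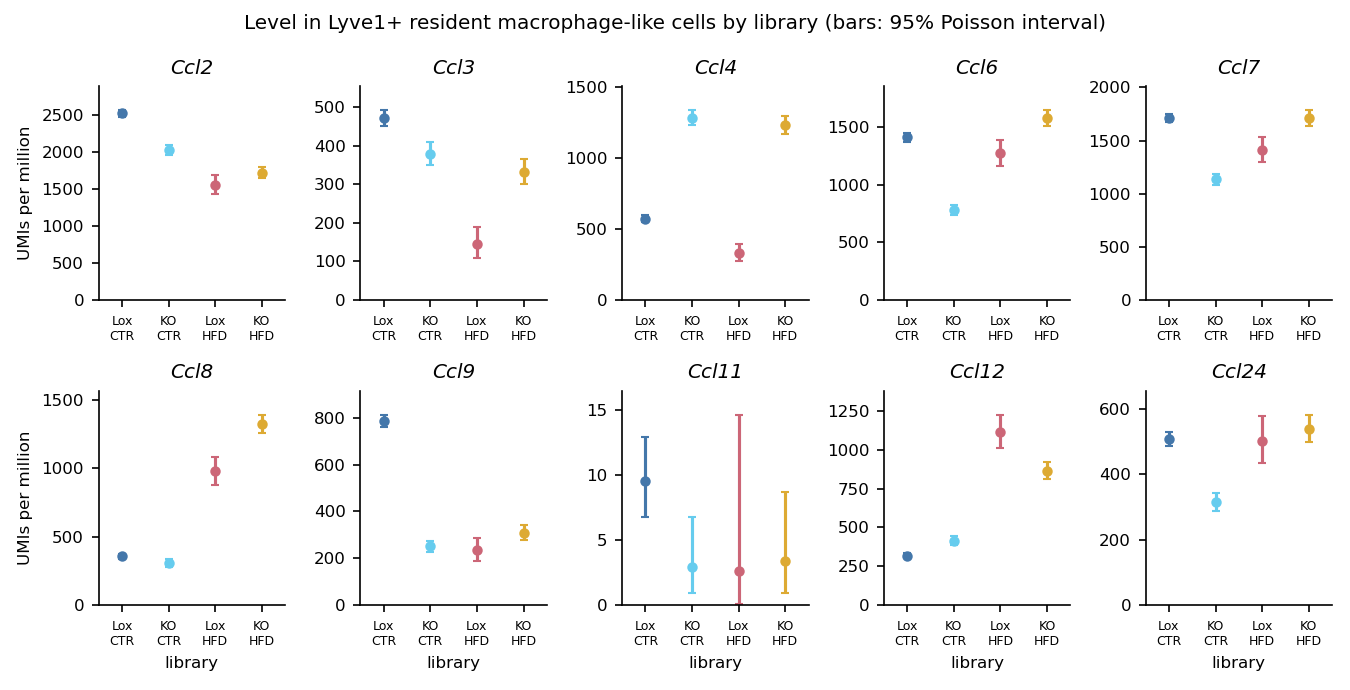
Level of each gene in Lyve1+ resident macrophage-like cells (vertical axis, CPM) in the 4 libraries (horizontal axis); points are pooled levels of 403, 215, 58 and 147 cells and bars are 95% Poisson intervals. Ccl8 and Ccl12 were higher in both HFD libraries, and Ccl9 was at 787 in Lox_CTR against 234 to 309 in the others.

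Between libraries, a ratio is said to be past the fold limit when it was 2-fold or more (1 on the log2 scale), its interval did not include 0, and the pair held at least 20 UMIs. The median log2 ratio over all genes tested was not 0 in the Lyve1+ class: it was 0.21 for KO_CTR against Lox_CTR, -0.13 for KO_HFD against Lox_HFD, 0.24 for Lox_HFD against Lox_CTR and -0.11 for KO_HFD against KO_CTR. Median UMIs per Lyve1+ resident macrophage-like cell were 9932, 7201, 6070 and 7389 in Lox_CTR, KO_CTR, Lox_HFD and KO_HFD, and library values below are in this order.

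In the Lyve1+ class, Lox_HFD against Lox_CTR put 2 of 10 genes past the limit upward (Ccl8 and Ccl12) and 2 downward (Ccl3 and Ccl9), beside 10.3% and 3.74% of all genes tested. KO_HFD against KO_CTR put 3 of 9 upward (Ccl6, Ccl8 and Ccl12) and none downward, beside 1.65% and 3.11%. KO_CTR against Lox_CTR put Ccl4 upward and Ccl9 and Ccl11 downward, beside 6.71% and 2.27%, and KO_HFD against Lox_HFD put Ccl3 and Ccl4 upward and none downward, beside 2.81% and 4.86%. These comparisons share libraries, so a library that stands apart moves a pair of them at once.

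Ccl8 was at 357, 306, 977 and 1325 CPM (1498, 528, 371 and 1563 UMIs). Both high-fat libraries stood above both control libraries. The log2 ratio of Lox_HFD to Lox_CTR was 1.45 (1.28 to 1.62) and that of KO_HFD to KO_CTR 2.12 (1.97 to 2.26), which is 2.74-fold and 4.34-fold. Few cells carried these UMIs: 7, 5, 7 and 6 cells held 50% of them, and the top cell alone held 19.2%, 20.3%, 11.9% and 12.9%. Without the top cell of each library the log2 ratios were 1.62 and 2.26. More cells were also positive: with every cell thinned to 2000 UMIs, 18.4%, 20.6%, 55.1% and 37.0% of Lyve1+ resident macrophage-like cells had a Ccl8 UMI (32.8%, 38.6%, 72.4% and 55.1% before thinning). Smooth muscle cell-like cells had 0.318%, 1.64%, 3.19% and 5.20% after thinning, at a median depth of 15625.5 UMIs against 8878. In those cells Ccl8 was at 1.53, 7.74, 13.9 and 19.1 CPM, a background that was itself higher in the high-fat libraries and far under the macrophage level. The order of the HFD libraries by share went against that by level and is not read.

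Ccl12 stood at 318, 416, 1116 and 866 CPM in the same cells. Again both high-fat libraries were above both controls, with log2 ratios of 1.81 (1.65 to 1.97) in the Lox pair and 1.06 (0.92 to 1.20) in the KO pair. In Lox_HFD, however, 2 of the 58 cells held 50% of the Ccl12 UMIs and the top cell held 31.4%. Without the top cell of each library the ratios were 1.42 and 0.995, the latter just under the limit, and the KO_HFD to Lox_HFD ratio moved from -0.37 to -0.00. The thinned share of positive cells was 21.5%, 24.3%, 37.7% and 35.8%, against 0.204%, 1.39%, 1.11% and 2.89% in smooth muscle cell-like cells. Ccl12 in Trem2/Cx3cr1 macrophage-like cells was at 321, 254, 226 and 414 (66, 30, 13 and 35 cells), so the high-fat libraries were not both higher there.

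Ccl2 was at 2527, 2037, 1559 and 1722 CPM and Ccl7 at 1709, 1135, 1411 and 1713. Neither gene passed the limit in any of the 4 ratios in the Lyve1+ class, and the largest was the Ccl2 ratio of Lox_HFD to Lox_CTR, -0.70 (-0.82 to -0.58). Ccl2 was thus lower in both high-fat libraries while Ccl8 and Ccl12 of the same chromosomal group were higher. The share of cells with Ccl2 was 79.6%, 72.2%, 77.2% and 72.2% after thinning, against 1.54% to 5.07% in smooth muscle cell-like cells, so that most cells of the Lyve1+ class had it in each library.

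Ccl9 was at 787, 250, 234 and 309 CPM. Lox_CTR stood alone above the other 3 libraries, with log2 ratios of -1.65 (-1.80 to -1.51) for KO_CTR and -1.75 (-2.07 to -1.44) for Lox_HFD against it. The UMIs were spread over many cells (83 of 403 cells held 50% of them in Lox_CTR, and the top cell 1.18%), and the thinned share of positive cells was 67.1%, 35.3%, 29.6% and 34.4%, against 0% to 1.86% in smooth muscle cell-like cells. Lox_CTR was also the highest library for Ccl9 in cavity macrophage-like cells (1686, 1184, 965 and 1002), in Trem2/Cx3cr1 macrophage-like cells (320, 254, 95.3 and 140), in classical monocyte-like cells (628, 371, 388 and 350) and, at background level, in fibroblast-like cells (7.08, 2.56, 4.81 and 3.98). Cells numbered 128, 12, 13 and 31 in the cavity class and 66, 30, 13 and 35 in the Trem2/Cx3cr1 class. Classical monocyte-like cells numbered 38, 13, 21 and 12. In nonclassical monocyte-like cells KO_CTR, with 6 cells, was the highest library for Ccl9, at 271 CPM. Ccl6, beside Ccl9 on the chromosome, was at 1410, 778, 1272 and 1575, with KO_CTR lowest and KO_HFD highest. Its log2 ratios had the same sign as those of Ccl9 in each pair of libraries but differed in size. For Lox_HFD against Lox_CTR the ratio was -0.15 for Ccl6 and -1.75 for Ccl9. The Ccl6 ratio of KO_HFD to KO_CTR was 1.02 (0.92 to 1.12). That ratio was 0.96 without the top cell of each library.

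Ccl4 was at 572, 1282, 329 and 1230 CPM. Both libraries labelled KO stood above both labelled Lox, with log2 ratios of 1.17 (1.08 to 1.25) in the control pair and 1.90 (1.64 to 2.18) in the high-fat pair. Centred on the median of all genes tested, the ratio of the control pair was 0.95, under the limit. A single cell held 46.4% of the 125 Ccl4 UMIs of Lox_HFD, and without the top cell of each library the high-fat ratio was 2.54, while that of Lox_HFD to Lox_CTR moved from -0.80 to -1.57. The thinned share of positive cells was 30.4%, 40.7%, 19.0% and 32.0%, against 0.941% to 2.47% in smooth muscle cell-like cells. In Trem2/Cx3cr1 macrophage-like cells, where Ccl4 was most abundant among phagocytes, it was at 2391, 3401, 2961 and 2627, and KO_HFD was not above Lox_HFD. Values of this class rest on 66, 30, 13 and 35 cells. Ccl3 was at 471, 378, 145 and 332 in the Lyve1+ class. Lox_HFD was the low library, at a log2 ratio of -1.70 (-2.12 to -1.32) to Lox_CTR, and it was also the low one in Trem2/Cx3cr1 macrophage-like cells (740, 815, 298 and 858). Only 55 UMIs in 12 of 58 cells carry the Lox_HFD value of the Lyve1+ class.

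Ccl24 was at 507, 315, 503 and 539 CPM. KO_CTR was the low library, at a log2 ratio of -0.69 (-0.83 to -0.55), short of the limit. A single KO_HFD cell held 220 UMIs, 34.6% of that library's total, and without the top cell of each library the KO_HFD to KO_CTR ratio fell from 0.78 to 0.24. Ccl11 in the Lyve1+ class rested on 40, 5, 1 and 4 UMIs. Its ratio past the limit, -1.72 (-3.42 to -0.38) for KO_CTR against Lox_CTR, is therefore a ratio of background levels, and fibroblast markers summed over the Lyve1+ class moved with it, at 543, 365, 287 and 317 CPM for 6 genes. Their part in the Ccl11 value was not tested.

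**Figure D3:**
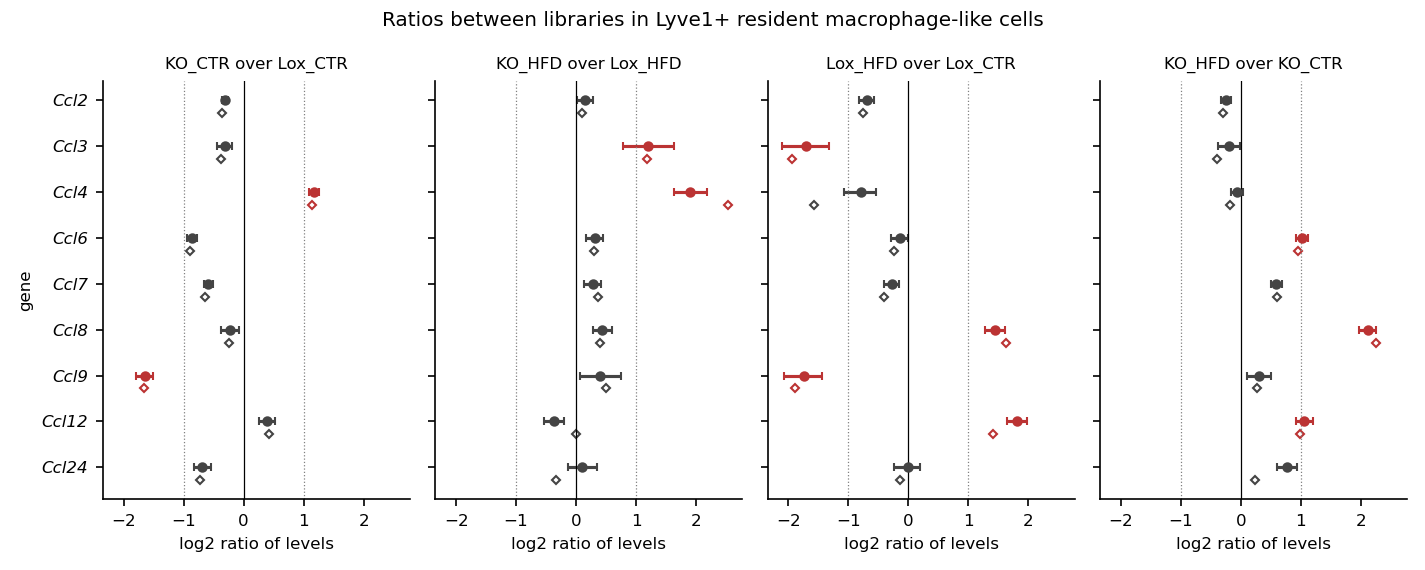
Log2 ratio of levels (horizontal axis) for each gene (vertical axis) in Lyve1+ resident macrophage-like cells, 1 panel per pair of libraries; filled points are ratios with 95% intervals, open diamonds leave out the top cell of each library, red marks ratios past the fold limit, dotted lines stand at the 2-fold limit, and Ccl11 is not drawn. Ccl8 was at 1.45 and 2.12 and Ccl12 at 1.81 and 1.06 in the high-fat against control panels.

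**Figure D4:**
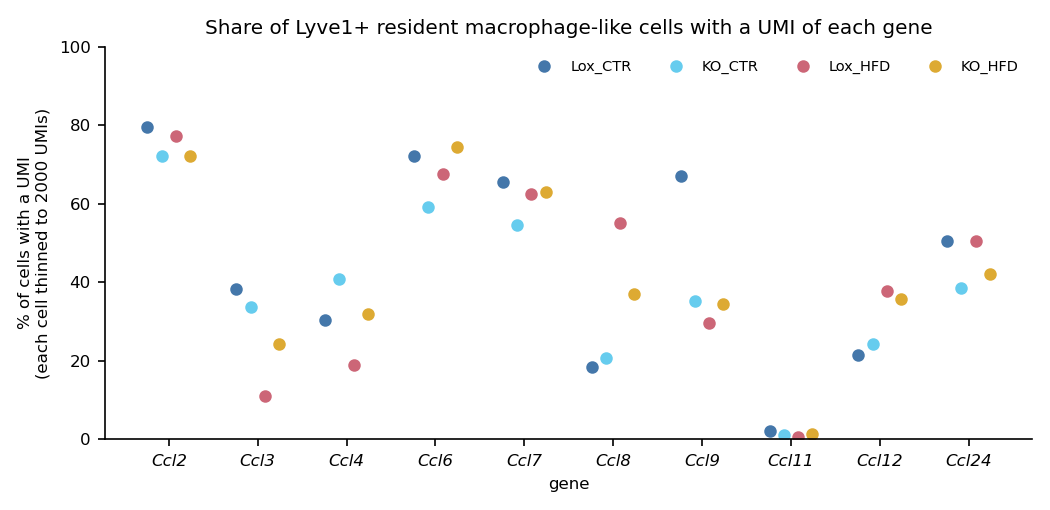
Share of Lyve1+ resident macrophage-like cells with at least 1 UMI of each gene (vertical axis, %) after thinning every cell to 2000 UMIs, by gene (horizontal axis) and library (colour). Ccl9 was detected in 67.1% of Lox_CTR cells and in 29.6% to 35.3% of the others, and Ccl8 in 55.1% and 37.0% of the HFD cells against 18.4% and 20.6%.

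Over all mononuclear phagocytes the ratios differed from those of the Lyve1+ class, and the makeup of the phagocytes differed between libraries. Lyve1+ resident macrophage-like cells were 53.1%, 67.6%, 39.2% and 53.8% of phagocytes and cavity macrophage-like cells 16.9%, 3.77%, 8.78% and 11.4%. The median log2 ratio over all genes tested was 0.24, -0.03, 0.14 and -0.10 in the pairs KO_CTR against Lox_CTR, KO_HFD against Lox_HFD, Lox_HFD against Lox_CTR and KO_HFD against KO_CTR. In these pairs, 1, 4, 0 and 3 of the 10 genes were past the limit upward, beside 7.83%, 2.57%, 6.07% and 2.23% of all genes tested. Downward there were 3, 0, 5 and 0, beside 2.25%, 2.69%, 3.28% and 3.03%. These counts include Ccl11, at background levels, in every pair. It was downward in KO_CTR and in Lox_HFD against Lox_CTR, and upward in KO_HFD against both Lox_HFD and KO_CTR. Ccl8 in phagocytes was at 161, 180, 224 and 559 CPM, with a log2 ratio of 1.64 (1.50 to 1.78) for KO_HFD against KO_CTR. Ccl9 was at 927, 303, 403 and 424, the only member with KO_CTR and Lox_HFD both past the limit below Lox_CTR apart from Ccl11, whose 8.1, 3.6, 2.3 and 8.2 are background levels. Ccl6 was at 1714, 779, 1317 and 1852, and Ccl2 at 1446, 1460, 663 and 986.

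With the makeup of the phagocyte classes held at that of all libraries, 9 of the 16 phagocyte ratios past the limit were still past it. They included the Ccl11 ratio of every pair, which rests on background levels, and the others were of Ccl3, Ccl8 and Ccl9. Every such ratio of Ccl2, Ccl4, Ccl6 and Ccl24 was lost. Ccl6 against Lox_CTR then moved from -1.14 to -0.62 in KO_CTR, and Ccl8 in KO_HFD against Lox_HFD from 1.32 to 0.47. In cavity macrophage-like cells themselves Ccl6 was at 3499, 2478, 3560 and 3928, where KO_CTR had 12 cells.

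In fibroblast-like cells Ccl2 was at 341, 186, 153 and 240 CPM, Ccl7 at 368, 243, 196 and 352, and Ccl11 at 393, 229, 424 and 377. Smooth muscle cell-like cells had 22.9, 23.7, 8.84 and 23.6 for Ccl2 and 6.06, 3.69, 2.53 and 17.3 for Ccl11, so these genes were above background in fibroblast-like cells of each library. Ccl2 in Lox_HFD was past the limit below Lox_CTR, at -1.16 (-1.25 to -1.07), and Ccl7 short of it at -0.91 (-0.99 to -0.83). Ccl11 did not follow: its ratio in that pair was 0.11 (0.05 to 0.17), and its low library was KO_CTR at -0.78 (-0.82 to -0.74). Ccl8 was at 18.5, 16.7, 37.3 and 38.4, with ratios of 1.01 (0.80 to 1.22) and 1.20 (1.01 to 1.39) in the high-fat pairs, and background in smooth muscle cell-like cells moved the same way. Ccl12 in fibroblast-like cells (1.69, 3.49, 6.77 and 10.0) was at the smooth muscle level (1.0, 5.80, 6.31 and 9.25) and is read as background. The pairs KO_CTR against Lox_CTR, KO_HFD against Lox_HFD, Lox_HFD against Lox_CTR and KO_HFD against KO_CTR had 1, 1, 2 and 2 of 10 genes past the limit upward, beside 2.45%, 0.966%, 2.83% and 2.06%. Downward there were 1, 0, 2 and 0, beside 3.57%, 0.885%, 3.51% and 3.51%, and calls of Ccl3, Ccl9, Ccl12 and Ccl24 among them were at levels of at most 10.0 CPM.

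**Figure D5:**
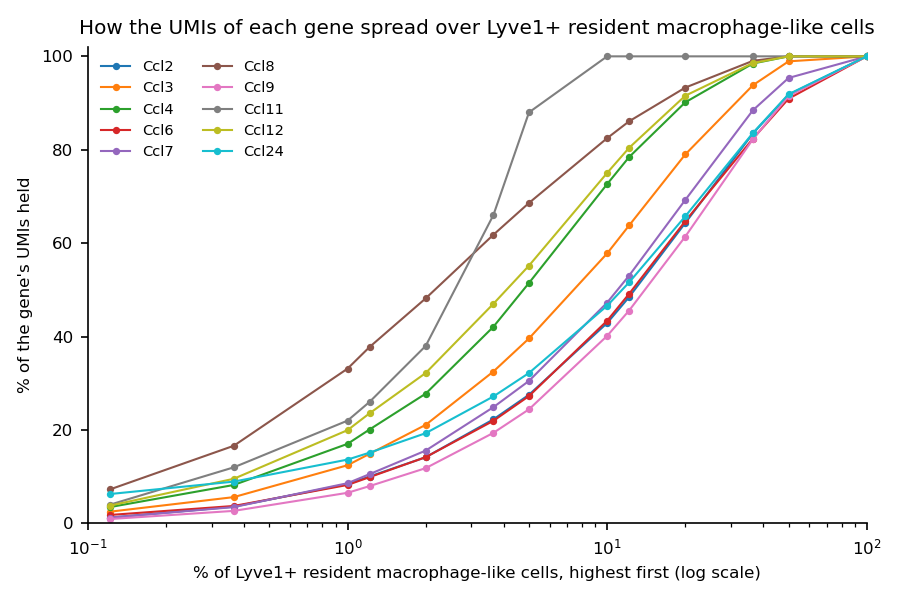
Cumulative share of each gene's UMIs (vertical axis, %) held by the Lyve1+ resident macrophage-like cells with the most UMIs (horizontal axis, % of 823 cells, log scale), 4 libraries pooled. The top 10% of cells held 82.5% of Ccl8 UMIs and 40.1% of Ccl9 UMIs; Ccl11 has only 50 UMIs.

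The genes fell into concentrated and spread ones. In the 823 Lyve1+ resident macrophage-like cells, the 8 cells with the most UMIs of a gene (1% of cells) held 33.1% of Ccl8 and 17.0% of Ccl4 UMIs, but 8.61% of Ccl7, 8.42% of Ccl2, 8.23% of Ccl6 and 6.55% of Ccl9. The top 10% held 82.5% of Ccl8, 75.0% of Ccl12 and 72.6% of Ccl4 UMIs. Ccl3 (57.8%) stood between them and the spread genes Ccl2, Ccl6, Ccl7, Ccl9 and Ccl24 (40.1% to 47.3%). The single top cell of the 823 held from 0.93% of Ccl9 to 7.27% of Ccl8 UMIs, with 6.29% for Ccl24, 1.23% for Ccl7 and 1.24% for Ccl2. Ccl24 was thus among the spread genes by the top 10% of cells only. Across the 8662 genes with at least 100 UMIs in phagocytes, the median share of the single top cell was 1.19%. That median is over all 1498 phagocytes and is not a measure to set beside the shares of 8 cells or of 10% of cells.

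Within cells of the Lyve1+ class, Ccl2 and Ccl7 went together in every library, with Pearson r of 0.52 to 0.63 over the cells of a library on log values. Ccl3 with Ccl4 gave 0.20 to 0.65, Ccl6 with Ccl9 0.30 to 0.58 and Ccl2 with Ccl12 0.30 to 0.35. Ccl8 and Ccl12, both higher in the high-fat libraries, were not found in the same cells more than weakly, with r of 0.03 to 0.10. Ccl4 and Ccl6 gave -0.28 to -0.05. In fibroblast-like cells Ccl2 with Ccl7 gave 0.31 to 0.40. Cells of a library share its depth and free RNA, and these values are descriptions of 58 to 403 cells per library. Over the same cells, Ccl2 went with the summed level of 8 NF-kappaB response genes at r of 0.35 to 0.46. Ccl3 (0.22 to 0.38), Ccl4 (0.15 to 0.34), Ccl7 (0.18 to 0.25) and Ccl12 (0.13 to 0.16) were also positive in every library. Ccl6 (-0.13 to -0.05) and Ccl8 (-0.14 to -0.03) were negative in every library, and Ccl9, Ccl11 and Ccl24 changed sign between libraries. With the summed level of 10 immediate early and heat shock genes, Ccl2 gave -0.09 to 0.15, Ccl8 -0.02 to 0.08 and Ccl12 -0.17 to -0.11. The immediate early and heat shock list, a sign of handling at dissociation as well as of activation, was at 10994, 15131, 17317 and 17078 CPM in the Lyve1+ class. The NF-kappaB list was at 13535, 14055, 10729 and 12556. In this class the immediate early and heat shock list was lowest in Lox_CTR and highest in the high-fat libraries, where Ccl8 and Ccl12 were high. In Lox_HFD against Lox_CTR, Fos, Jun and Egr1 were past the limit upward and Hspa1b downward, beside 10.3% and 3.74% of all genes tested. None of the list was past it in KO_HFD against KO_CTR. Over all phagocytes the list was at 8221, 12716, 8117 and 12521 CPM, higher in the libraries labelled KO. Its part in the Ccl8 and Ccl12 results was not tested.

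Over 37 profiles of a class in a library (14 classes, 10520 genes compared), the genes most like each member by Pearson r were, for Ccl2, Rab7b (0.93) and Abca9 (0.93), and for Ccl7, Scamp5 (0.91). Ccl3 and Ccl4 were each other's closest gene (0.94). Ccl6 was most like Lyz2 (0.96) and Alox5ap (0.96), Ccl9 like Clec4a3 (0.92), Ccl12 like Ms4a14 (0.92) and Ccl24 like Fcna (0.84). Ccl8 came with Ccdc152 (0.83) and Lyve1 (0.81), the latter a marker used in the gate. Ccl11 was nearest to the matrix genes Fbln1 (0.90), Lum (0.90) and Svep1 (0.90). Lyz2 and Lum were also markers used in the gate, for mononuclear phagocytes and for fibroblasts. Profiles of a library share its depth and free RNA.

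Of the 11 other CC chemokine genes of the list, 3 had enough UMIs in the Lyve1+ class for Lox_HFD against Lox_CTR and none was past the limit. Ccl5, a T and NK cell product at 17831 CPM in NK cell-like cells, was at 21.9, 4.63, 7.90 and 44.9 in the Lyve1+ class. Among the CC receptor genes, Ccr2, the receptor of Ccl2, Ccl7 and Ccl12, was at 30.7, 42.3, 81.6 and 126 CPM in the Lyve1+ class, with log2 ratios of 1.41 (0.79 to 1.98) for Lox_HFD against Lox_CTR and 1.58 (1.17 to 2.00) for KO_HFD against KO_CTR. Its level was 872 in classical monocyte-like and 786 in cavity macrophage-like cells. By library, Ccr2 was at 65.3, 219, 262 and 103 in Trem2/Cx3cr1 and at 628, 1379, 1293 and 903 in cavity macrophage-like cells. Lox_HFD was above Lox_CTR in both of these classes, but KO_HFD was below KO_CTR. Ccrl2, an atypical chemerin receptor, was lower in Lox_HFD than in Lox_CTR (52.7 against 109 CPM). In KO_CTR against Lox_CTR neither Ccr2 nor Ccrl2 was past the limit, and in KO_HFD against Lox_HFD Ccrl2 was past it upward. Ccl5 was past it downward in KO_CTR against Lox_CTR and upward in KO_HFD against both Lox_HFD and KO_CTR, on 92 UMIs in Lox_CTR, 8 in KO_CTR, 3 in Lox_HFD and 53 in KO_HFD. Ccr1 was highest in neutrophil-like cells at 689, and Ccr3, the eotaxin receptor, had 4 UMIs among all phagocytes. Of the atypical receptor genes, Ackr3 was at 594 in fibroblast-like cells, against 25.5 for Ackr2, 9.77 for Ackr1 and 3.75 for Ackr4.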

How the data were processed

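The authors aligned the reads to mm10 and deposited raw UMI counts per gene and cell from Cell Ranger 6.1.2 (per the submitters' processing notes), unnormalized, in 4 libraries of 1 group each. The study's limits were applied (200 to 6000 genes, no more than 15% mitochondrial UMIs), and cells under 2000 UMIs were left out as well. Cells were gated on marker counts (3 of 6 markers, a lead of 2 for lineages and of 1 for phagocyte classes). Scrublet (scanpy 1.11.5) marked 250 kept cells (1.92%), which stayed in and were left out in an alternative. Counts were summed per class and library and given per 1000000 UMIs of those cells (CPM). Levels have exact Poisson intervals, shares Clopper-Pearson intervals and ratios exact binomial intervals (95%, scipy 1.17.1), all for counting error only. No test between conditions was made. Genes were named as all 10 members, the 3 most like genes of each, and the fixed chemokine and receptor lists. The ratios and the thinning were tested on simulated data. The simulated counts for the ratios held counting error only and no concentration of UMIs in few cells. The members and lists were chosen with earlier results of these data known. Alternatives changed the filters, the gate, the doublets, the averaging over cells and the top cell. Alternatives with a fixed makeup of phagocyte classes, centred on the median over all genes, and without Lox_CTR for the order of lineages were chosen after seeing the data. Python 3.11.15, numpy 2.4.6, pandas 2.3.3 and matplotlib 3.10.9 were used. Some items of the fixed lists and of the study's treatment are not reported here.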

Additional observations from a re-analysis of the deposited data

Results flagged for a closer look

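The ratios of a library labelled KO to the library labelled Lox on the control and on the high-fat diet, and the ratios of high-fat to control libraries in the Lox and in the KO pair, were screened in phagocytes, the Lyve1+ class and fibroblast-like cells. In 12 results at least one of these contrasts had ratios on opposite sides of 0, both with intervals that did not include 0, and the KO to Lox log2 ratios of the diets were at least 1 apart. In 10 of them the KO to Lox ratios themselves lay on opposite sides, and in the other 2 (Ccl9 in phagocytes and in fibroblast-like cells) the high-fat to control ratios did. Another 4 results, all in the Lyve1+ class, had opposite directions less than 1 apart. The screen covered the 10 members in each of these cell groups and was not run on all genes. These counts therefore have no share of all genes beside them and are not read as a trait of the members. The difference between the high-fat and the control log2 ratio was 1.63 for Ccl6, 1.20 for Ccl7, 1.68 for Ccl9, 3.04 for Ccl11 and 1.65 for Ccl24 in all phagocytes. Within the Lyve1+ class it was 1.51 for Ccl3, 1.17 for Ccl6 and 2.05 for Ccl9, and in fibroblast-like cells 1.53 for Ccl2, 1.28 for Ccl6, 1.44 for Ccl7 and 1.19 for Ccl9. With 1 library per group these differences were not tested. For Ccl9 in the Lyve1+ class the KO to Lox log2 ratios were -1.65 and 0.40, and for Ccl3 they were -0.32 and 1.19. For Ccl2 in fibroblast-like cells they were -0.88 and 0.65, and for Ccl7 -0.60 and 0.85. For Ccl11 in phagocytes they were -1.19 and 1.84 on background levels. Ccl6 in fibroblast-like cells was at 13.8, 8.13, 10.8 and 15.5 CPM in Lox_CTR, KO_CTR, Lox_HFD and KO_HFD. Smooth muscle cell-like cells had more Ccl6 in every library (18.2, 11.4, 17.7 and 23.9). Ccl9 in fibroblast-like cells was at 2.56 to 7.08 CPM, under the smooth muscle level in all libraries but Lox_HFD. Both are read as background there, so their differences in fibroblast-like cells are between background levels.

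Barcodes under 2000 UMIs, which the comparisons left out and only the alternative without a lower UMI limit used (423 in Lox_CTR, 240 in KO_CTR, 93 in Lox_HFD and 366 in KO_HFD), held 6 of the 10 members above the level in those of Lox_CTR in at least 1 library, with intervals that did not overlap. Ccl8 was at 107 CPM (UMIs per 1000000) in KO_CTR, 252 in Lox_HFD and 335 in KO_HFD, against 16.6 in Lox_CTR. Ccl12 was at 103 in KO_CTR and 193 in KO_HFD against 11.1. Ccl6 was at 439 in Lox_HFD and 287 in KO_HFD against 127, Ccl7 at 412 in KO_HFD against 155, and Ccl4 at 206 in KO_CTR against 92.1. Ccl24 was at 91.2 in KO_CTR and 85.2 in KO_HFD against 31.3. Some other values lay below Lox_CTR: Ccl11 was at 197 in Lox_CTR against 83.2, 74.7 and 173 in KO_CTR, Lox_HFD and KO_HFD, Ccl3 at 94.0 against 67.4, 84.0 and 48.3, and Ccl4 in Lox_HFD at 56.0. Others lay above it with overlapping intervals, such as Ccl12 at 46.7 and Ccl24 at 56.0 in Lox_HFD. In Lox_CTR, KO_CTR, Lox_HFD and KO_HFD, Ccl2 was at 330, 388, 261 and 440 and Ccl9 at 51.6, 63.4, 84.0 and 36.9. Both genes thus lay on either side of Lox_CTR. Median UMIs of these barcodes were 1311, 937.5, 1058 and 771 in Lox_CTR, KO_CTR, Lox_HFD and KO_HFD. The CPM levels were taken over all such barcodes of a library and were not split by cell class. The comparison covered the 10 members and was not run on all genes. The count of 6 therefore has no share of all genes beside it and is not read as a trait of the members.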

How the results depend on the processing

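Of the 37 ratios past the fold limit in phagocytes, the Lyve1+ class and fibroblast-like cells, 20 were past it under every alternative run. Those in the Lyve1+ class were the Ccl9 and Ccl3 ratios, Ccl4 in KO_HFD against Lox_HFD, Ccl8 in both high-fat pairs (1.21 to 1.71 and 2.05 to 2.26) and Ccl12 in Lox_HFD against Lox_CTR (1.30 to 1.87). The 20 also include ratios at background or low levels: Ccl11 in phagocytes for Lox_HFD against Lox_CTR, and Ccl3, Ccl9 and Ccl12 in fibroblast-like cells. With the mean over cells and with the fixed makeup, the rule used the fold and the UMI minimum but no interval. All 37 were past the limit without a lower limit on UMIs, with at most 10% mitochondrial UMIs and without cells marked by Scrublet. The number still past it was 33 with a gate of 4 of 6 markers, 32 with a lead of 1 marker, 28 with the mean over cells and 31 without the top cell. Among alternatives chosen after seeing the data, it was 33 after centring on the median of all genes (lost were Ccl4 in KO_CTR against Lox_CTR in phagocytes and in the Lyve1+ class, and Ccl12 and Ccl8 in a pair each of fibroblast-like cells) and 9 of 16 with a fixed makeup of phagocyte classes. Those 9 included the Ccl11 ratio of every pair. Ratios of Ccl11 in phagocytes, which rest on background counts, reversed: KO_HFD against Lox_HFD to -0.20 and KO_HFD against KO_CTR to -0.81 with a gate of 4 of 6 markers, KO_CTR against Lox_CTR to 0.22 with a lead of 1 marker, and KO_HFD against KO_CTR to -0.49 without the top cell.

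Without the library Lox_CTR, also an alternative chosen after seeing the data, phagocytes were the highest lineage for 9 in place of 6 of the 10 genes. The number of members past the limit moved as follows. In phagocytes, KO_HFD against Lox_HFD went from 4 to 2 with a gate of 4 of 6 markers (Ccl3 and Ccl8) and to 2 with the fixed makeup (Ccl3 and Ccl11), KO_HFD against KO_CTR from 3 to 1 with the mean over cells (Ccl8), and KO_CTR against Lox_CTR from 4 to 2 with the fixed makeup (Ccl9 and Ccl11). In the Lyve1+ class, KO_HFD against KO_CTR went from 3 to 1 without the top cell (Ccl8). The causes were not tested. No paired analysis was possible because each group is 1 library. Depth limits the 58 Lyve1+ resident macrophage-like cells of Lox_HFD most: they held 379803 UMIs against 4195755 in Lox_CTR, and 3 UMIs there correspond to 7.90 CPM.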
